A study of Mus musculus with 11 samples.

Results

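The nuclear genes that encode subunits of the respiratory chain and of the ATP synthase were followed in sections of mouse liver after acetaminophen (APAP) injury. Members were chosen by symbol: those starting with Ndufa, Ndufb, Ndufc, Ndufs or Ndufv (complex I), Uqcr (complex III), Cox4 to Cox8 (complex IV) and Atp5 (complex V), without the assembly factors whose symbols start with Ndufaf and without pseudogenes. Of 31053 genes in the feature table, 81 symbols matched, and the 75 with a mean of at least 1 UMI (unique molecular identifier, a counted transcript molecule) in 1000000 over the sections were kept. They were 38 genes of complex I, 8 of complex III, 13 of complex IV and 16 of complex V. The complexes were assigned by symbol, so Ndufa4, whose protein is now known as a subunit of complex IV, and its paralogue Ndufa4l2 are counted with complex I in all counts, medians and shares by complex. The rule used the mean level but no difference between time points. Just outside it lay Cox6b2, at a mean of 0.812 UMIs per 1000000 UMIs, and Cox4i2, at 0.613. Just inside it lay Cox6a2, at 1.36, and Ndufa4l2, at 5.47. The other symbols left out were Cox8b, Cox7b2, Cox8c and a second Ensembl entry for Atp5o, of which the last 3 were listed at 0 in every section. All 75 members passed the filter on low counts in each fit below.

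Complex I takes electrons from NADH and complex III passes them from ubiquinol to cytochrome c. Complex IV hands them to oxygen, and the proton gradient that these complexes build drives ATP synthesis by complex V. The nuclear genome encodes most subunits, while a small set of core subunits is encoded by mitochondrial DNA. In the hepatocyte, APAP is oxidised by cytochrome P450 enzymes of the central zone to a reactive product that binds mitochondrial proteins, so cells around the central vein die first while cells around the portal tract survive. The portal side receives blood that is richer in oxygen and is known for more oxidative metabolism.

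The spatial libraries came from livers of C57BL/6JCrl mice, male unless otherwise stated, 8 to 12 weeks of age and fasted for 12 h, that received APAP at 300 mg/kg into the peritoneum. The groups were 0h, the uninjured control, with 3 sections, 24h with 2, 36h with 2 and 48h with 4. Visium was used, in which a spot of the slide captures polyadenylated RNA from a small area that can hold several cells, so a spot is not a cell and spots are not replicates. The methods give an n of 1 for each time point of the mouse spatial data and do not say how the deposited sections relate to animals, so the sections of a time point may share 1 mouse. The p-values cover only the spread between these sections, and if a mouse is shared, time point and mouse cannot be told apart. UMIs were summed per section over 1490 to 3466 spots, which gave 31292663 to 67045372 UMIs a section. In these sums fewer cells of a type and less RNA per cell cannot be told apart.

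Some whole-library features moved with the time point and touch every result below. Mitochondrially encoded transcripts took 4.10 to 6.0% of UMIs at 0h, 1.94 and 2.37% at 24h, 2.35 to 3.06% at 48h, and 1.80% in one 36h section against 4.53% in the other. The scaling factors of the trimmed mean of M-values (TMM) were 0.784 to 0.811 at 0h and 0.983 to 1.166 after injury, which rescales the 0h sections against the injured ones. A list of 10 hepatocyte genes (Alb, Ttr and others) had a summed level of 132190 to 138460 CPM (counts in 1000000, TMM-scaled) at 0h and 87152 to 104780 at 48h. Over the same groups the summed level of 8 macrophage and monocyte genes went from 576 to 624 CPM up to 944 to 1746 CPM, and that of 5 neutrophil genes from 3.17 to 9.06 CPM up to 35.5 to 113 CPM. The part of these shifts in the results was not tested.

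Genes of this family are known as targets of the factors NRF1, NRF2 (an ETS factor also called GABP), YY1 and ERR alpha, so the bases around their transcription starts are shown for several members. Promoter windows from RefSeq (GRCm38.p6), 250 bases before to 50 after the start, were matched for 63 of the 75 members. Among those not listed were Ndufa2, Ndufa4l2, Ndufb9, Ndufs1, Uqcrb, Uqcrc2, Uqcrq, Cox4i1, Cox6a2, Cox6c and Atp5a1. On either strand and with no mismatch, the NRF1 motif was found in 15 windows, 23.8%, against 5.19% of the windows of 27025 genes. The letters CCGGAAG (ETS) were found in 14, 22.2% against 9.93%, AAGATGGCG (YY1) in 7, 11.1% against 1.64%, and TCAAGGTCA (ERR) in 1, 1.59% against 0.466%. At least 1 of the 4 was found in 31 member windows, 49.2%, against 15.5% of all windows. The member windows also held a median of 19 CG dinucleotides against 7 over all genes, and their median GC content was 57.3% against 52.7%. By complex the NRF1 motif was found in 7 of 33 windows for complex I, 1 of 5 for complex III, 1 of 10 for complex IV and 6 of 15 for complex V. A match is a description of these letters and not a binding site.

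To show them, 6 members are printed over the 200 bases before the start of a RefSeq window. Motif matches are in capitals and the rest in lower case. Ndufa5 has 2 windows, and the stretch printed lies within its annotated gene (chr6:24518666-24528013, minus strand). Its match is therefore not upstream of the gene as annotated. Ndufa5, Uqcrh, Cox6a1 and Atp5k stand for the 4 complexes and hold a match. Cox7a2 and Cox7a1 are the pair of isoforms, found in most tissues and mainly in heart and muscle respectively, that is followed below, and neither window holds a match.
Ndufa5 (chr6:24527527-24527726, minus strand): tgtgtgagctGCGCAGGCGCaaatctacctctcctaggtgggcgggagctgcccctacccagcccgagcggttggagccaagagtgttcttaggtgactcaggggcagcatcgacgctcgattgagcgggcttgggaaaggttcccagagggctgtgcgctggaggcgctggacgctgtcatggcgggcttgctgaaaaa
Uqcrh (chr4:116075071-116075270, minus strand): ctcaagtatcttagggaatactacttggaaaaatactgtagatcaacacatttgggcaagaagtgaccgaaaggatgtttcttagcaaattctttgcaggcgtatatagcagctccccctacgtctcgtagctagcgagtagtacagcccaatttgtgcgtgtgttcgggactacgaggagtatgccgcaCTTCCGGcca
Cox6a1 (chr5:115348959-115349158, minus strand): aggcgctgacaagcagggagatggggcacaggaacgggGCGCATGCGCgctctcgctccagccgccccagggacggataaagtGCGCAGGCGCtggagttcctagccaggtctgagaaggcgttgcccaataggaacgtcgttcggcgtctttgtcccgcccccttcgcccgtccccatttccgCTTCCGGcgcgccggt
Atp5k (chr5:108434400-108434599, minus strand): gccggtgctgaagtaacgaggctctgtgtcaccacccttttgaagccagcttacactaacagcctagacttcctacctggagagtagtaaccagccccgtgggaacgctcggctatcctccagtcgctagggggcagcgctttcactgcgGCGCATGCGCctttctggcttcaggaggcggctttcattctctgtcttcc
Cox7a2 (chr9:79759854-79760053, minus strand): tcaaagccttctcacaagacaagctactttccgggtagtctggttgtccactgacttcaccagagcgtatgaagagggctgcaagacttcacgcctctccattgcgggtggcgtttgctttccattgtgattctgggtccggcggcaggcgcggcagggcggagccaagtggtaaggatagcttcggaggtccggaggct
Cox7a1 (chr7:30183971-30184170, plus strand): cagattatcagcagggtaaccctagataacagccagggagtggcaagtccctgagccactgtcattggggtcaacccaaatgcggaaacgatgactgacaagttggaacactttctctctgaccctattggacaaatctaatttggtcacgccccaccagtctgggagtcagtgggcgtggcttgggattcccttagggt
Cox6a1 held 2 matches of the NRF1 motif and 1 of the ETS letters, and 23 CG dinucleotides, where Cox7a1 held 4 and Cox7a2 12.

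Across the time course the members fell against the typical gene by a similar amount in each complex, and had not returned by 48h. Their summed TMM-scaled level was 44433 ± 685 CPM at 0h (SD, n = 3), 28404 ± 1742 at 24h (n = 2), 29327 ± 623 at 36h (n = 2) and 28869 ± 1511 at 48h (n = 4). Expressed instead as a share of all UMIs, the fall was smaller and partly came back. That share was 3.58, 3.59 and 3.43% in the 0h sections, 3.0 and 2.67% at 24h, 3.28 and 3.04% at 36h, and 3.55, 3.22, 3.24 and 3.22% at 48h. Both earlier injured groups, 24h and 36h, lay below the 0h sections, while at 48h the highest section lay within the 0h range.

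Both scales are given because they place the typical gene differently. With scaling to the total count the median log2 fold change of all 14821 genes tested was 0.37 at 24h, 0.49 at 36h and 0.54 at 48h against 0h, while with TMM it was 0.05, 0.05 and 0.01. The members' median log2 fold change minus that of all genes was −0.67 at 24h, −0.65 at 36h and −0.65 at 48h with TMM. A change of scaling shifts all genes by nearly the same amount, so these relative values are nearly the same on either scale by construction. The counts of calls, which are read against zero change, depend on the scale and are given for both.

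**Figure D1:**
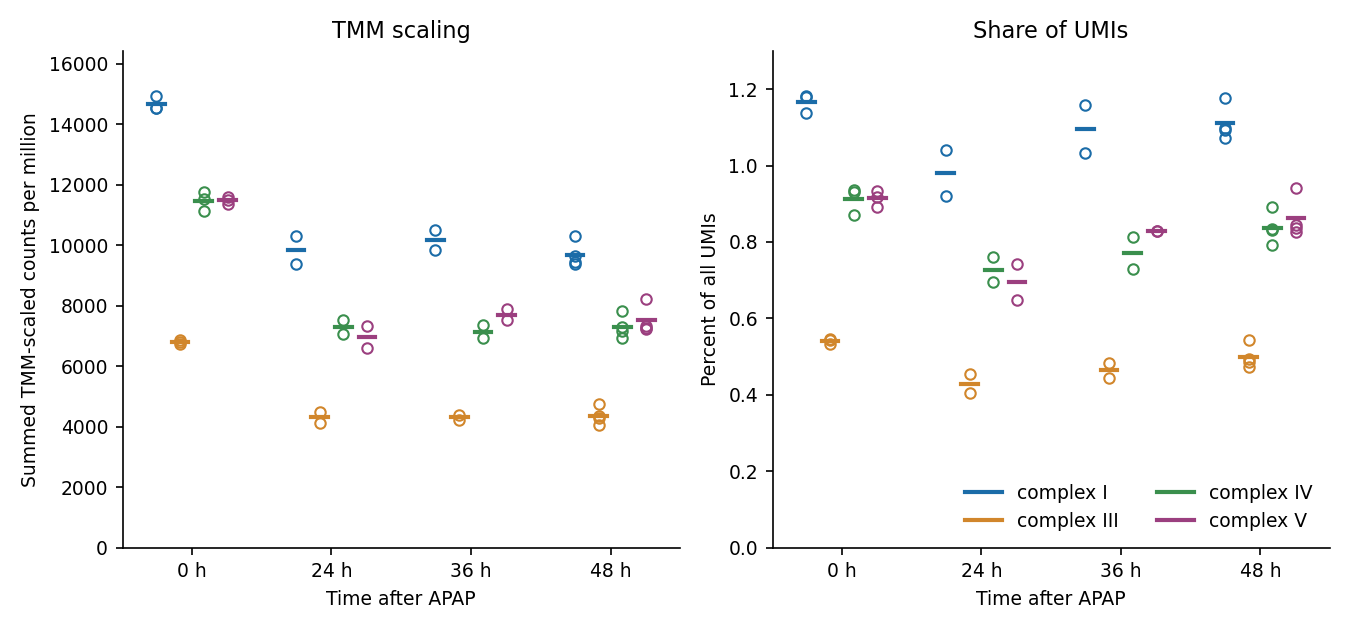
Summed level of the members of each complex in every section, in TMM-scaled CPM and as a percentage of all UMIs, by time point, with 1 circle a section and a bar at the group mean. On the TMM scale all injured sections lie below the 3 sections at 0h in each complex, while on the share of UMIs the 48h sections approach them.

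With TMM scaling, 68 of the 75 members were called at 24h (edgeR's quasi-likelihood test, Benjamini-Hochberg adjusted p under 0.05 over all genes tested), 1 higher and 67 lower, against a background of 41.7% of all genes called, 23.1% higher and 18.6% lower. At 36h 62 were called, 1 higher and 61 lower, against 29.2% of all genes, 16.8% higher and 12.4% lower. At 48h 72 were called, 1 higher and 71 lower, against 44.2%, 23.3% higher and 20.9% lower. With scaling to the total count 35 were called at 24h, 1 higher and 34 lower, against 51.2% of all genes called, 41.1% higher and 10.0% lower. At 36h 16 were called, 4 higher and 12 lower, against 47.7% and 2.98%, and at 48h 6 were called, 3 each way, against 60.2% and 4.04%. The 3 lower calls at 48h make up a share of the members near the background. The members that still fell at 48h on that scale were Ndufb5, Ndufs7 and Uqcr11, and those that rose were Cox6a2, Atp5s and Ndufa2. This set of 6 was listed after its values were seen.

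The complexes fell by similar amounts. Their median log2 fold changes (TMM) at 24h, 36h and 48h were −0.61, −0.58 and −0.63 for complex I, −0.60, −0.71 and −0.66 for complex III, −0.67, −0.71 and −0.67 for complex IV, and −0.73, −0.60 and −0.64 for complex V. Members called lower at the 3 times were 32, 29 and 36 of 38 in complex I, 8, 7 and 8 of 8 in complex III, 12, 12 and 12 of 13 in complex IV, and 15, 13 and 15 of 16 in complex V. In each section, complex I made up 32.8 to 35.3% of the members' summed level, complex III 14.6 to 15.5%, complex IV 24.0 to 26.0% and complex V 24.3 to 27.3%. Within these ranges the groups still differed. Complex I made up 32.8 to 33.1% at 0h, 34.5 and 34.7% at 24h, 34.0 and 35.3% at 36h and 33.1 to 34.1% at 48h. Complex V made up 25.7 to 26.0% at 0h, 24.3 and 24.8% at 24h, 25.2 and 27.3% at 36h and 25.7 to 26.5% at 48h. At 36h complex III was at 14.6 and 14.8%, against 15.2 to 15.5% at 0h. Complex IV was at 24.0 and 24.7% at 36h, against 25.4 to 26.0% at 0h. These shifts were not tested.

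**Figure D2:**
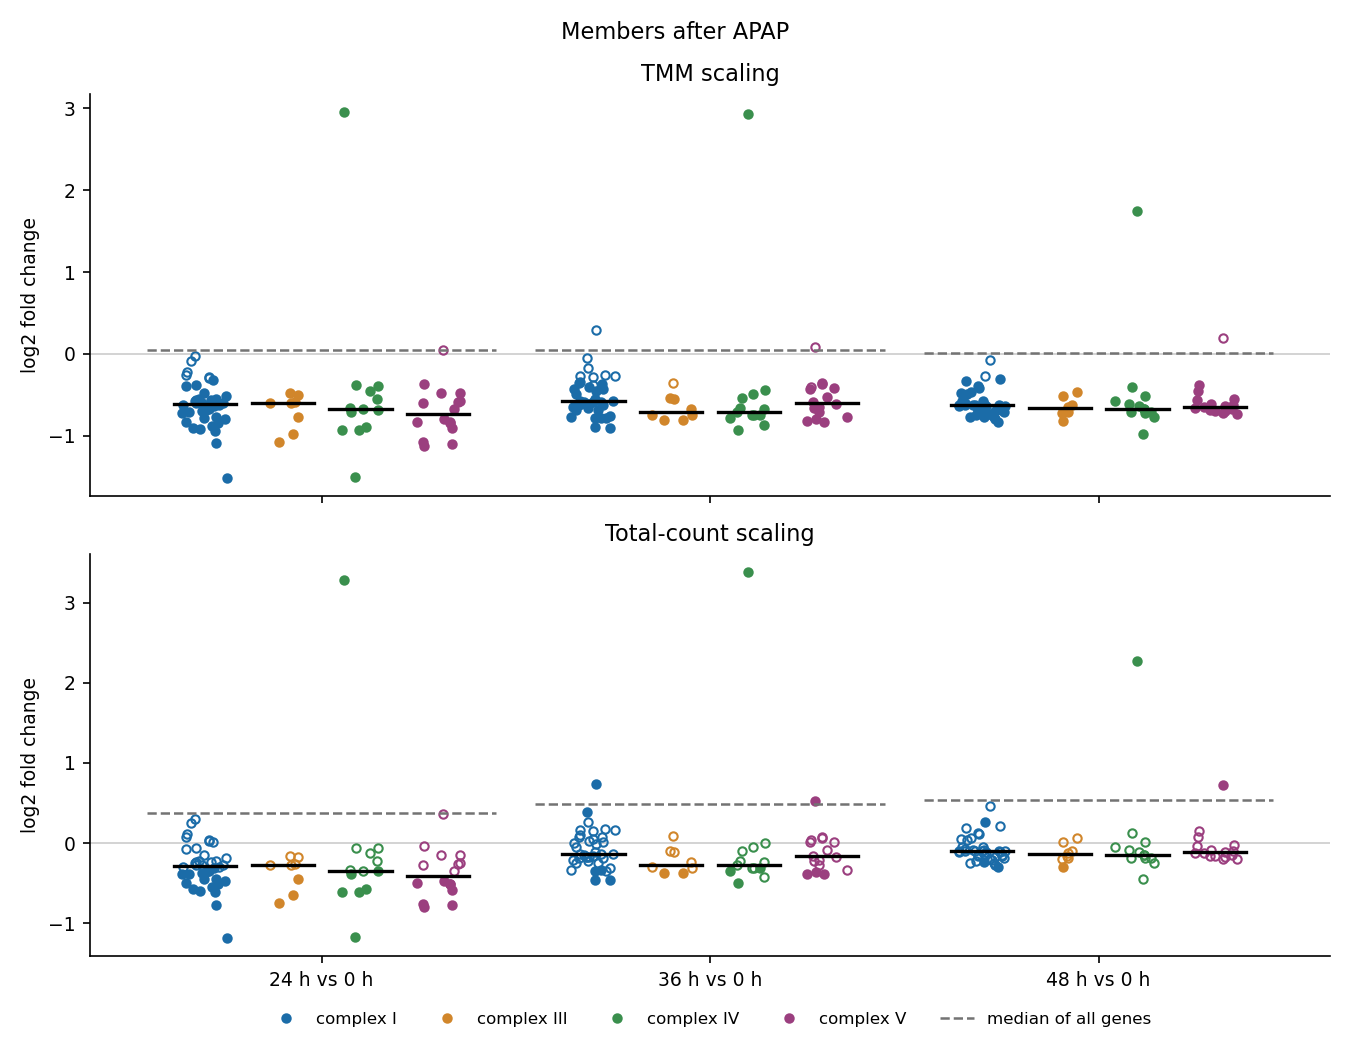
Log2 fold change of every member at 24h, 36h and 48h against 0h, by complex, with TMM scaling above and total-count scaling below. Each point is a gene, filled where called, black bars are complex medians and dashed lines the median of all genes tested. In the TMM panel most members sit below the line in each complex, with medians from −0.58 to −0.73, and Cox6a2 stands apart above the line.

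Among complex I members, Ndufb5 and Ndufb10, both of the membrane arm, were among those with the largest falls. Ndufb5 (chr3:32736990-32751566, GRCm38, plus strand) was at 331, 316 and 313 CPM at 0h, 155 and 145 at 24h, 174 and 168 at 36h, and 198, 181, 185 and 190 at 48h. No injured section reached the 0h range. Its log2 fold change was −1.09 ± 0.10 (SE; edgeR quasi-likelihood, adjusted p = 4.2e-05), −0.90 ± 0.10 (adjusted p = 0.00042) and −0.76 ± 0.08 (adjusted p = 6.5e-05) in time order, and it was called lower at all 3 times with scaling to the total count too. Ndufb10 fell by 0.94, 0.77 and 0.80 on the log2 scale.

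The core subunits of the matrix arm, which carry the redox centres, followed. Ndufs1, the largest subunit and a holder of iron-sulfur clusters, was at 83.3 to 89.9 CPM at 0h, 42.3 and 50.5 at 24h, 62.8 and 65.4 at 36h and 47.3 to 62.7 at 48h. It fell by 0.90, 0.43 and 0.68 on the log2 scale. Ndufv1, which binds FMN and NADH, fell by 0.60, 0.41 and 0.62. Ndufs7, a further cluster-bearing subunit, fell by 0.57, 0.58 and 0.82 and was lowest at 48h, at 131 to 139 CPM against 234 to 253 at 0h. Ndufa12 fell by 0.72, 0.90 and 0.77, and Ndufb8, a subunit whose protein is often used to read complex I content, by 0.77, 0.62 and 0.63. On the total-count scale Ndufs1 and Ndufv1 turned to 0.004 and 0.03 at 36h, neither called.

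A few complex I members did not follow the others. Ndufa3 was at 536, 513 and 462 CPM at 0h, 468 and 522 at 24h, 518 and 457 at 36h, and 354, 319, 296 and 323 at 48h. Its groups overlapped until 36h and the 48h sections lay below all others. It was not called at 24h (log2 fold change −0.03 ± 0.12) or 36h (−0.05 ± 0.12), and was called at 48h against 0h (−0.64 ± 0.10, adjusted p = 0.00063) and against 36h (−0.59 ± 0.11, adjusted p = 0.026, edgeR). On the total-count scale Ndufa3 was called higher at 36h, by 0.39. Ndufa2 changed by −0.08, −0.17 and −0.26 and was called at none of the 3 times (TMM). Ndufa4, at 1699 to 1867 CPM at 0h, fell by 0.69, 0.45 and 0.49, and Ndufa4l2 is described with the isoforms.

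In complex III, Uqcrfs1, the Rieske iron-sulfur protein (chr13:30540308-30545362, minus strand), was at 427, 434 and 428 CPM at 0h, 211 and 198 at 24h, 249 and 243 at 36h, and 296, 263, 235 and 247 at 48h. Each group other than 24h lay above it, and no injured section reached the 0h sections. The log2 fold changes were −1.08 ± 0.12 (edgeR, adjusted p = 0.00011), −0.80 ± 0.12 (adjusted p = 0.0014) and −0.72 ± 0.10 (adjusted p = 0.00023). Uqcrh, the hinge protein that binds cytochrome c1, fell by 0.98, 0.80 and 0.63. Uqcr11 fell by 0.77, 0.74 and 0.82. The core protein Uqcrc1 fell by 0.48 at 24h and 0.68 at 48h, while at 36h its value of −0.36 did not pass (adjusted p = 0.054, edgeR).

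In complex IV the widely expressed subunits fell at all 3 times. Cox5a, which lies next to the catalytic core, was at 764, 794 and 850 CPM at 0h, 541 and 443 at 24h, 461 and 380 at 36h and 492 to 548 at 48h, and its log2 fold changes were −0.71 ± 0.13, −0.93 ± 0.13 and −0.63 ± 0.11. Cox7b fell by 0.93, 0.75 and 0.61, Cox6b1 by 0.93, 0.71 and 0.71, and Cox8a by 0.89, 0.79 and 0.71. Cox4i1, the largest nuclear subunit, went from 1520 to 1560 CPM at 0h to 1126 and 1129 at 24h, 1085 and 1044 at 36h and 900 to 1129 at 48h, a fall of 0.45, 0.53 and 0.57. The smallest fall of a complex IV member at 24h and 48h was that of Cox7a2l, a supercomplex assembly factor rather than a subunit of the free enzyme, at −0.38, −0.49 and −0.40. Scaled to the total count, Cox7a2l was at −0.05, −0.05 and 0.12, none called.

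In complex V, the catalytic subunits and the stalks fell alike. Atp5c1, the central stalk's gamma subunit (chr2:10056016-10080510, minus strand), was at 468, 474 and 447 CPM at 0h, 229 and 195 at 24h, 262 and 260 at 36h, and 309, 292, 282 and 257 at 48h. No injured section reached the 0h range. Its log2 fold changes were −1.13 ± 0.12 (edgeR, adjusted p = 8.7e-05), −0.83 ± 0.12 (adjusted p = 0.0012) and −0.70 ± 0.10 (adjusted p = 0.00028). The alpha and beta subunits that form the catalytic head, Atp5a1 and Atp5b, fell by 0.83, 0.66 and 0.63 and by 0.67, 0.42 and 0.55. Of the peripheral stalk, Atp5j fell by 1.1, 0.79 and 0.69, Atp5f1 by 0.84, 0.82 and 0.62, and Atp5o by 0.91, 0.71 and 0.72. Atp5k, the small membrane subunit e, fell by 0.48 and 0.73 at 24h and 48h and was at −0.40 at 36h (adjusted p = 0.053, edgeR). Atp5s, or factor B, a regulator rather than a subunit, stayed between 6.23 and 9.14 CPM over all sections and was called at no time with TMM (0.04, 0.09 and 0.20). With scaling to the total count it was called higher at 36h (0.52) and 48h (0.73).

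Between the injured times little moved. At 36h against 24h, 2 members were called, both higher, against a background of 15.6% of all genes, 7.04% higher and 8.58% lower. They were Atp5g3, at 0.72 ± 0.18 (edgeR, adjusted p = 0.026), and Ndufa4l2, at 1.81 ± 0.28 (adjusted p = 0.0051). The median over the members was 0.05, beside 0.02 over all genes. At 48h against 36h, 1 member was called, Ndufa3, lower, against 3.05% of all genes, 1.62% higher and 1.43% lower, and the median was −0.03, beside −0.01. Both counts rest on 2 sections in 1 or both groups.

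The tissue isoforms departed from the rest of their complexes. Complex IV contains subunits with a liver-type form and a heart and muscle form, and in the liver the latter are rare. Cox6a2, the heart and muscle form of subunit 6a (chr7:128205435-128206387, minus strand), was at 0.264, 0.368 and 0.254 CPM at 0h, 2.84 and 1.82 at 24h, 3.71 and 0.885 at 36h, and 0.796, 0.624, 1.48 and 1.11 at 48h. All injured sections lay above the 0h sections, although the 2 sections at 36h differed by several fold. It is the 1 higher call among the members with TMM at each time, with log2 fold changes of 2.96 ± 0.57, 2.93 ± 0.58 and 1.74 ± 0.52 (SE). It reached the level threshold of the rule only through the injured sections, so these values are a description and not a test. The counts behind it were small, with 41 UMIs over the 0h sections, 189 at 24h, 159 at 36h and 266 at 48h. It made up 0.0278 to 0.0400% of the UMIs of the Cox6a pair at 0h and at most 0.680% after injury, while Cox6a1, the liver form, held the rest and fell by 0.55, 0.67 and 0.72. The gene lies within Itgad on the opposite strand, and Itgad had 16 UMIs over all 11 sections. Whether the counting used strand is not given in the sources used here.

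Cox7a1, the heart and muscle form of subunit 7a (chr7:30184144-30186078, plus strand), moved the other way. It was at 12.2, 15.4 and 12.7 CPM at 0h, 5.03 and 4.47 at 24h, 9.50 and 5.19 at 36h, and 6.63, 6.82, 6.57 and 7.33 at 48h. Each injured section lay below the 0h sections. The log2 fold changes were −1.5 ± 0.22 (adjusted p = 0.00053), −0.87 ± 0.22 (adjusted p = 0.014) and −0.97 ± 0.17 (adjusted p = 0.0012, edgeR), against −0.68, −0.75 and −0.77 for Cox7a2, the common form. With scaling to the total count the fall of Cox7a1 passed at 24h (−1.17) and was −0.43 and −0.45 later, not called. Its share of the UMIs of the 3 genes Cox7a1, Cox7a2 and Cox7a2l was 0.970 to 1.18% at 0h, 0.567 and 0.574% at 24h, and 0.699 to 1.13% at 36h and 48h.

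Ndufa4l2, known as a target of the hypoxia-inducible factor HIF (chr10:127514967-127517154, plus strand), dipped at 24h. It was at 6.05, 5.25 and 6.61 CPM at 0h, 1.94 and 2.27 at 24h, 7.47 and 7.16 at 36h, and 5.04, 3.89, 7.27 and 6.47 at 48h. Both 24h sections lay below all others. Its log2 fold change was −1.51 ± 0.26 at 24h (adjusted p = 0.0011, edgeR), then 0.30 and −0.07, neither called. With scaling to the total count the 36h value was 0.74 and called higher. Ndufa4l2 overlaps Shmt2 on the opposite strand, and Shmt2 had a mean of 131 UMIs per 1000000 UMIs against 5.47 for Ndufa4l2. Whether the counting used strand is not given. The part of Shmt2 in these values, and in those of Ndufa4l2 by zone and spot class, was not tested. Of 10 HIF targets, a list that includes Ndufa4l2 and Cox4i2, 1 was called higher and 3 lower at 24h, 3 and 1 at 36h, and 3 and 3 at 48h (TMM). The shares of all genes called higher and lower were 23.1 and 18.6%, 16.8 and 12.4%, and 23.3 and 20.9%. Cox4i2, the hypoxia form of subunit 4 that lay below the level threshold, lay between 0.0871 and 0.199 per 1000000 UMIs at 0h and between 0.678 and 1.07 at 48h. Its fitted changes were 2.19 at 36h and 2.04 at 48h, and Cox4i2 is among the HIF targets counted as higher at those times. The 0h sections held 5, 11 and 9 of its UMIs, and the 36h sections 18 and 42. It passed the filter on low counts through the injured sections, so these values are a description and not a test.

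**Figure D3:**
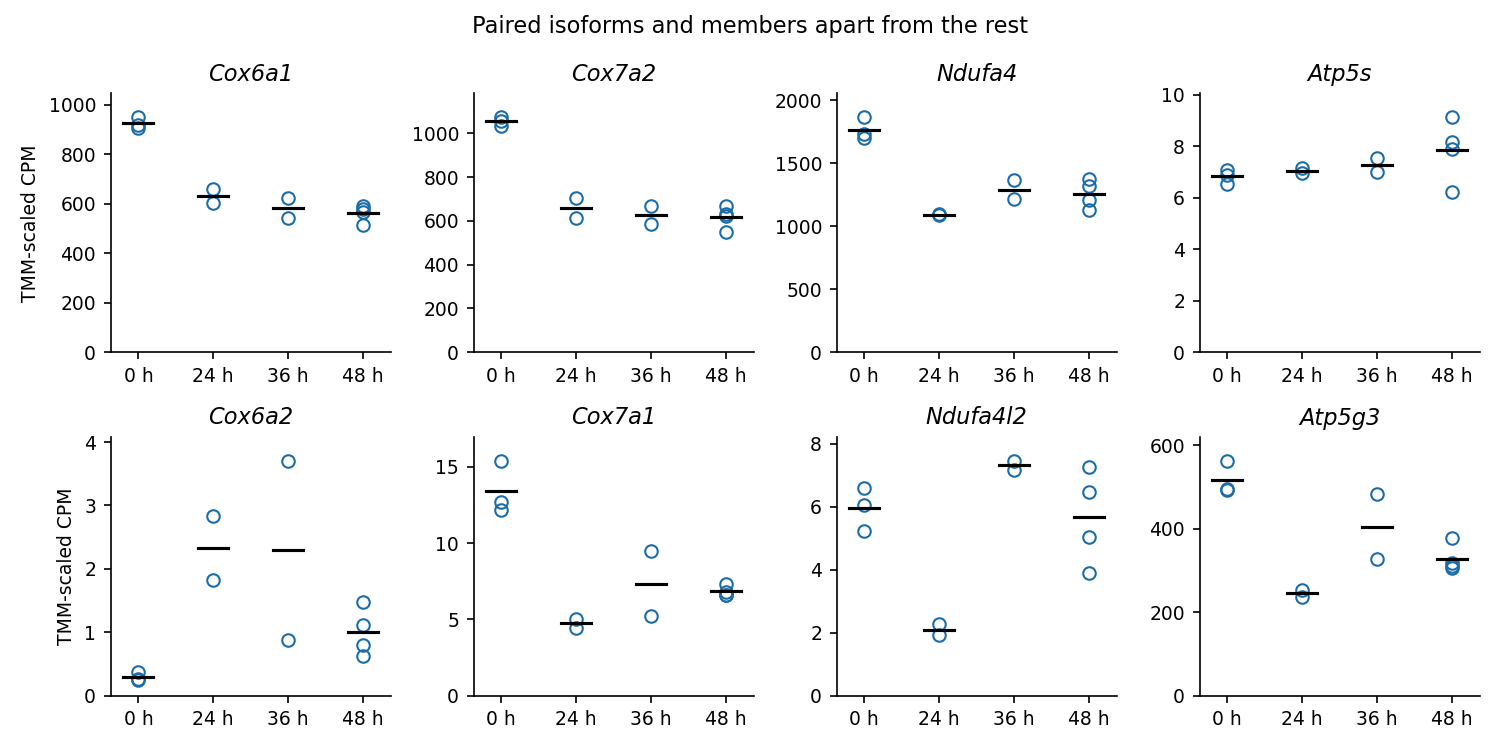
Levels of 8 members in every section, in TMM-scaled CPM on linear axes, by time point, with the common forms Cox6a1, Cox7a2 and Ndufa4 beside Atp5s above, and Cox6a2, Cox7a1, Ndufa4l2 and Atp5g3 below. Each circle is a section and each bar a group mean. Cox6a2 lies higher and Cox7a1 lower in all injured sections than in the 3 sections at 0h, and Ndufa4l2 is lowest in the 2 sections at 24h.

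The 3 genes Atp5g1, Atp5g2 and Atp5g3, encode the same mature c-ring protein of complex V. At 0h they gave 41.3 to 42.0%, 22.7 to 24.5% and 33.8 to 35.2% of their joint UMIs. Atp5g3 was at 564, 493 and 496 CPM at 0h, 237 and 253 at 24h, 327 and 484 at 36h, and 379, 318, 310 and 307 at 48h. Lowest were the 24h sections, and the 36h sections were far apart. Its log2 fold changes were −1.08 (called), −0.35 (not called) and −0.66 (called), against −0.58, −0.59 and −0.65 for Atp5g1 and −0.47, −0.42 and −0.38 for Atp5g2, all called. On the total-count scale Atp5g2 turned to 0.01 and 0.15 at 36h and 48h, neither called. The share of Atp5g3 fell to 24.1 and 29.5% at 24h and was 29.5 to 40.9% later.

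Other parts of the machinery moved by different amounts, listed here by TMM with their counts. Complex II, the succinate dehydrogenase, fell in all 4 of its genes at each time, with medians of −1.12, −0.62 and −0.67. The electron carriers and cytochrome c1 (Cycs, Cyc1, Etfa, Etfb, Etfdh) had 4, 5 and 5 of 5 called lower, with medians of −1.0, −0.65 and −0.77. Etfdh, which feeds electrons from fatty acid oxidation to ubiquinone, fell by 1.55, 1.29 and 1.18. Of 13 TCA cycle genes 11, 6 and 12 were called lower, with medians of −0.54, −0.41 and −0.56. Of all genes 18.6, 12.4 and 20.9% were called lower at the 3 times. Scaled to the total count, the TCA genes called lower were 3, 0 and 1, against 10.0, 2.98 and 4.04% of all genes.

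The mitochondrially encoded subunits fell further than the nuclear ones in the same fits. The medians were −1.45, −1.18 and −1.65 over 7 genes of complex I, −1.55, −1.13 and −1.32 over 3 of complex IV, and −2.37, −1.69 and −2.50 over 2 of complex V, and mt-Cytb of complex III was at −1.23, −1.03 and −1.19. The complex V median averages 2 genes of unlike level. The abundant mt-Atp6 was at 10269 to 14345 CPM at 0h and 3558.5 to 5043 at 48h. The much rarer mt-Atp8 was at 71.1 to 129 CPM at 0h and 5.31 to 12.8 at 48h. The ratio of nuclear to mitochondrial complex I UMIs was 0.839 to 1.2 at 0h, 1.62 and 2.41 at 24h, 1.03 and 2.88 at 36h, and 1.78 to 2.20 at 48h. For complex IV it was 0.343 to 0.468 at 0h, 0.650 and 0.814 at 24h, 0.345 and 0.968 at 36h, and 0.587 to 0.733 at 48h. The low value at 36h in both complexes belongs to the section with 4.53% mitochondrial UMIs, which lies within the 0h range. The difference between nuclear and mitochondrial genes was not itself tested.

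The assembly factors and regulators changed less uniformly. Of 15 complex I assembly factors 1 was called higher and 3 lower at 24h, 0 and 4 at 36h, and 0 and 10 at 48h, with medians of −0.22, −0.17 and −0.37. Ndufaf1 fell by 0.58, 0.71 and 0.73. Of 20 complex IV assembly factors 1 and 4, 0 and 7, and 0 and 11 were called higher and lower, and of 6 for complex III 1 and 1, 0 and 0, and 0 and 2. Sco2, a copper chaperone for complex IV, fell by 1.36, 1.57 and 1.08. The medians of these lists change sign with scaling to the total count. Of all genes, 23.1, 16.8 and 23.3% were called higher and 18.6, 12.4 and 20.9% lower at the 3 times (TMM). The lower calls of these lists at 24h are near that share.

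Among 14 regulators of mitochondrial biogenesis, 1, 1 and 0 were called higher and 4, 4 and 5 lower. In either direction these counts are near the shares of all genes, 41.7, 29.2 and 44.2%. Called lower were 18.6, 12.4 and 20.9% of all genes. Tfam, which packages mitochondrial DNA, fell by 0.33, 0.44 and 0.33, and Gabpa, the DNA-binding part of NRF2, by 0.52, 0.41 and 0.30. Pprc1, a coactivator, rose by 1.61 at 24h and was at 0.20 and 0.25 later, not called. Nrf1 was at 0.32, −0.08 and 0.18, none called. Atpif1, the inhibitor of ATP hydrolysis by complex V, was the 1 gene of its list of 6 that rose, by 0.53 at 36h and 0.83 at 48h.

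Within the lobule, the members were lower on the central than on the portal side at 48h by more than at 0h on the TMM scale, while at 24h and 36h few had changed in this difference. Each spot was scored with 8 portal genes minus 8 central genes after thinning to 2000 UMIs, and in each section the lowest and highest 25% of spots were taken as the central and portal side. UMIs were summed per side and section, the section was a block in the fit, and the 16 score genes were left out. Genes held out of the score tracked the sides at 0h, but the central ones only in part after injury. Of 6 central check genes 6, 4, 2 and 4 were called higher centrally at 0h, 24h, 36h and 48h. At 36h and 48h 1 and 2 were called lower. Of 6 portal check genes 6, 6, 5 and 5 were called lower centrally. The summed level of the 8 central score genes was 4343 to 5368 CPM at 0h and 725 and 1400 at 24h. It was 1275 and 1782 at 36h, and 1472.5 to 1979.4 at 48h. After injury, central and portal therefore name the ends of the score, and hepatocyte genes were also lower at the central end, as given below. The central check genes had medians of 1.70, 0.91, 0.48 and 0.69 at the 4 times.

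At 0h the members' summed level (TMM) was lower in the central side by 0.05, 0.05 and 0.06 on the log2 scale in the 3 sections. The difference was −0.10 and −0.15 at 24h, −0.15 and −0.20 at 36h, and −0.41, −0.33, −0.27 and −0.29 at 48h. These last values lay outside the range of all other times. As a share of UMIs the same sides differed by 0.01, −0.02 and 0.00 at 0h, 0.08 and 0.14 at 24h, 0.08 and 0.02 at 36h, and −0.06, −0.02, −0.04 and −0.05 at 48h, so the order of the sides at 24h and 36h is the opposite on that scale.

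By gene (TMM), 11 of 75 members were called between sides at 0h, 1 higher and 10 lower centrally, against a background of 14.7% of all genes, 7.51% higher and 7.23% lower. At 24h 24 were called, 1 higher and 23 lower, against 20.4%, 9.60% higher and 10.8% lower. At 36h 35 were called, 1 higher and 34 lower, against 20.1%, 8.77% and 11.4%, and at 48h 72, 1 higher and 71 lower, against 53.5%, 29.4% and 24.2%. The count at 0h is a share of the members near that of all genes. The median differences were −0.06, −0.12, −0.15 and −0.31, and −0.07, −0.12, −0.16 and −0.35 relative to the median of all genes. Scaled to the total count, 12 were called at 0h (3 higher, 9 lower, against 10.7% and 5.59% of all genes), 34 at 24h (32 higher, 2 lower, against 27.0% and 4.08% of all genes), 11 at 36h (all higher, against 25.7%) and 33 at 48h (13 higher, 20 lower, against 59.2% and 9.78%). The calls at 24h and 36h point the other way on that scale, where the all-gene median was 0.23 at both times and 0.32 at 48h, and the higher calls at 36h are a smaller share of the members than of all genes. Without section A or B at 24h, 9 and 6 members were called at that time, and without section A or B at 36h, 22 and 8. Without section 2 or 3 at 0h, 6 were called at 0h in each case.

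Whether the zone difference itself had changed since 0h was tested as a contrast of contrasts. For 24h, 12 members passed, 3 towards central and 9 towards portal, against 12.8% of all genes, 5.19% and 7.64%. For 36h 8 passed, 2 and 6, against 15.2%, 5.86% and 9.31%, and for 48h 66, 2 and 64, against 33.8%, 15.6% and 18.1%. The shares for 24h and 36h lie near or under those of all genes. The medians were −0.06, −0.11 and −0.25, or −0.04, −0.10 and −0.26 relative to all genes. Scaled to the total count, 23 passed at 24h (22 and 1, against 12.5% and 3.13% of all genes), 8 at 36h (7 and 1, against 12.7% and 4.82%) and 10 at 48h (5 and 5, against 32.2% and 8.84%), so on that scale the shares for 36h and 48h were below those of all genes. The counts for 24h and 36h fell to 3 without section B of the respective injured group.

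**Figure D4:**
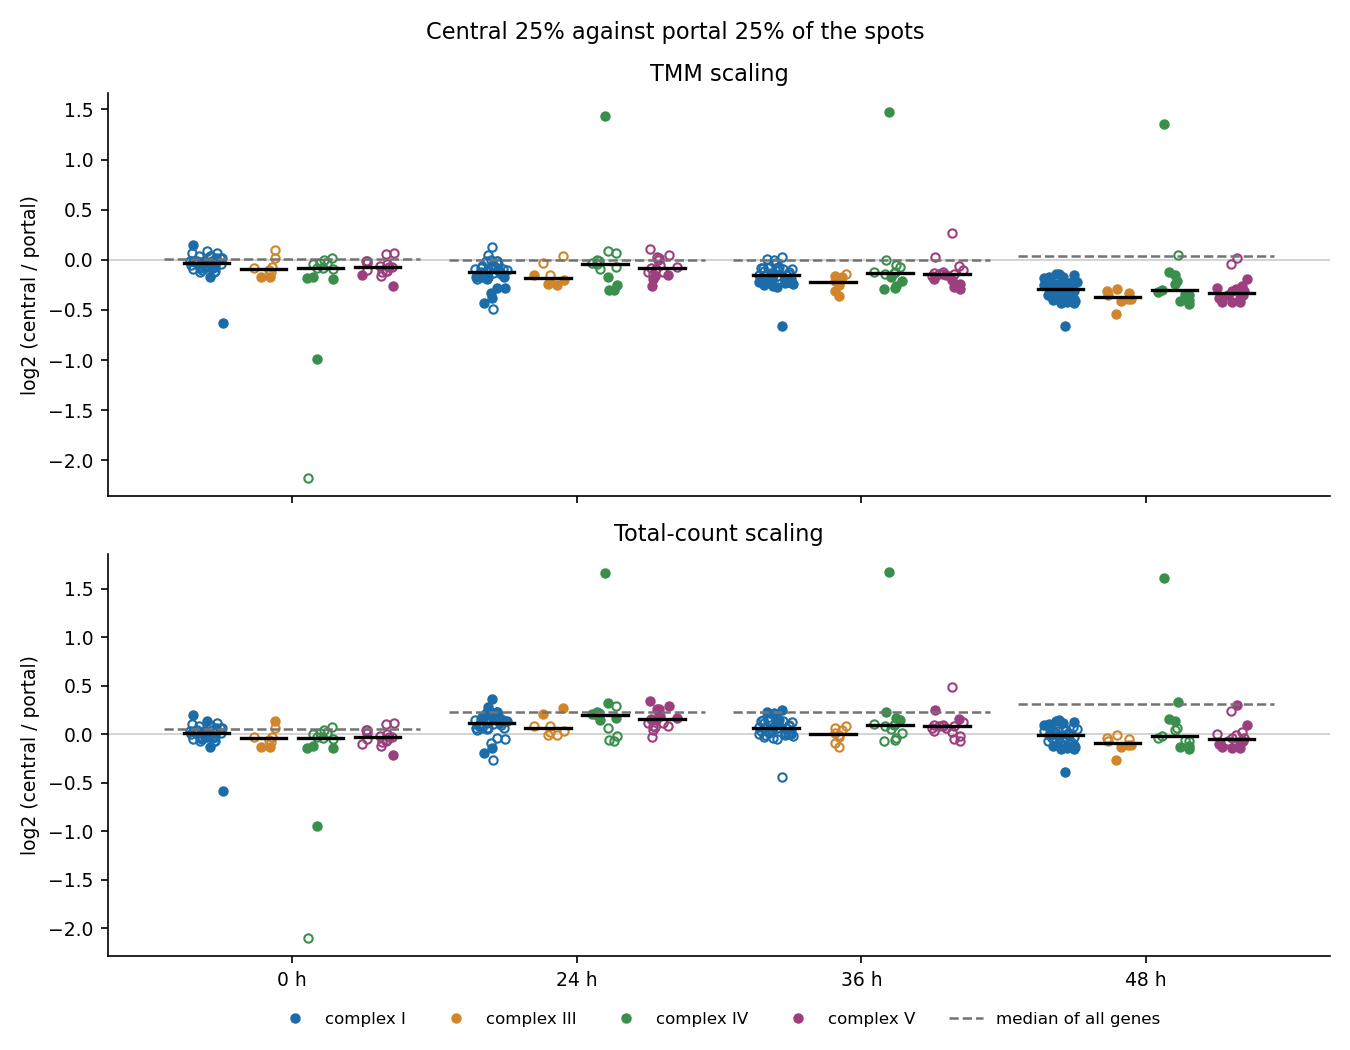
Log2 difference between the central and portal side for every member at each time, by complex, with TMM scaling above and total-count scaling below. Each point is a gene, filled where called, black bars are complex medians and dashed lines the median of all genes tested. With TMM the points move down from 0h to 48h, where 71 members are called lower centrally, and with total-count scaling most calls at 24h and 36h point up instead.

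The members named by zone were spread over all complexes. Uqcrfs1 in the central and portal side was at 403 and 438, 415 and 452, and 379 and 462 CPM in the 0h sections, and at 246 and 370, 216 and 328, 207 and 292, and 216 and 302 CPM in the 48h sections. It was lower centrally in each, with differences of −0.18 ± 0.05 at 0h (adjusted p = 0.0089) and −0.54 ± 0.04 at 48h (adjusted p = 6.7e-13, edgeR), and the change between them was −0.37. Atp5a1 went from −0.15 ± 0.04 at 0h to −0.43 ± 0.04 at 48h, a change of −0.27, and Cox7b from −0.19 ± 0.05 to −0.44 ± 0.04, a change of −0.25.

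Ndufb11, a complex I subunit, did not differ detectably between sides at 0h (−0.05 ± 0.05, adjusted p = 0.60), when its levels were 468 and 474, 467 and 478, and 454 and 485 CPM. At 24h it was at 313 and 401, and 262 and 375 CPM, a difference of −0.43 ± 0.06 (adjusted p = 2.1e-06, edgeR), and at 48h again at −0.43 ± 0.04. At 36h the named members were Uqcrc2 (−0.36), Cox7b (−0.29), Atp5f1 (−0.29) and Ndufv3 (−0.28). At 0h they were Atp5g1 (−0.26), Cox5b (−0.19), Uqcr10 (−0.18) and Ndufa5 (−0.17), all small beside the median of −0.67 over the portal check genes.

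The isoforms showed the widest zone differences. Cox7a1 was at 8.84 and 16.1, 10.2 and 21.2, and 7.26 and 14.7 CPM in the central and portal sides at 0h, a difference of −0.99 in the fit. After injury the sides overlapped, at 4.85 and 4.78 and at 4.40 and 3.95 CPM at 24h, with differences of 0.07, −0.13 and 0.05, none called, and the change from 0h passed at each time (1.06, 0.86 and 1.04). Its portal level therefore fell with injury by more than its central level. Ndufa4l2 was lower centrally at 0h (−0.63), 36h (−0.66) and 48h (−0.66), and at 24h its −0.49 was not called.

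Cox6a2 was higher centrally at 24h (3.33 and 1.38, and 2.93 and 0.847 CPM), 36h (5.96 and 1.42, and 1.25 and 1.09 CPM) and 48h (1.13 and 0.404, 0.576 and 0.382, 2.0 and 0.559, and 1.6 and 0.762 CPM). It was higher in the central side of each injured section, with fitted differences of 1.44, 1.48 and 1.35. The UMIs behind them were few, 44 and 15, and 26 and 6 at 24h, and 61 and 11, and 12 and 9 at 36h. At 48h section B held 8 and 4. The gene passed the level threshold only through the injured sections, so these values are a description and not a test. At 0h the sides held 0, 2 and 1 UMIs centrally and 6, 4 and 6 portally, too few for a fold. The fitted changes from 0h (3.61, 3.65 and 3.52) rest on those counts.

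The other cell types moved with the same sides. Of 10 hepatocyte genes 8, 10, 10 and 10 were called lower centrally at 0h, 24h, 36h and 48h, with medians of −0.32, −0.65, −0.49 and −0.67. Of 8 macrophage and monocyte genes 0, 4, 4 and 7 were called higher, of 5 neutrophil genes 0, 3, 3 and 5, and of 8 myofibroblast and stellate genes 1, 2, 4 and 8. The part of these cell types in the members' gradient was not tested. Of all genes, 7.51, 9.60, 8.77 and 29.4% were called higher centrally at the 4 times and 7.23, 10.8, 11.4 and 24.2% lower.

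The spots with least hepatocyte RNA were therefore looked at directly. In each section the 10% of spots with the lowest score over the 10 hepatocyte genes was compared with the rest of the same section, with those genes left out. Between 33.1 and 53.6% of these spots lay in the central side, so the comparison shares spots with the one above. At 0h the poor spots were shallow and rich in mitochondrial UMIs (medians of 5178 to 14795.5 UMIs a spot, against 20780 to 31697 in the rest). The part of depth in that comparison was not tested.

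The members were lower in the poor spots at each time on the TMM scale. At 0h 32 were called, all lower, against 11.7% of all genes, 3.28% higher and 8.39% lower. At 24h 60 were called, 1 higher and 59 lower, against 28.3%, 11.2% and 17.1%. At 36h 66 were called, 1 higher and 65 lower, against 31.4%, 14.3% and 17.0%, and at 48h 73, 1 higher and 72 lower, against 63.7%, 33.1% and 30.6%. The medians were −0.17, −0.28, −0.34 and −0.48, and −0.10, −0.23, −0.34 and −0.51 relative to all genes. On the total-count scale 9 were called at 0h (3 higher, 6 lower, against 6.11% and 3.04% of all genes), 11 at 24h (9 and 2, against 32.4% and 5.70%), 11 at 36h (9 and 2, against 38.7% and 6.40%) and 33 at 48h (14 and 19, against 62.7% and 13.3%). The higher calls after injury on that scale are a smaller share of the members than of all genes. Without section 3 or 4 the 0h count was 9 and 8, without section A the 24h count was 16, and without section B the 36h count was 43.

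**Figure D5:**
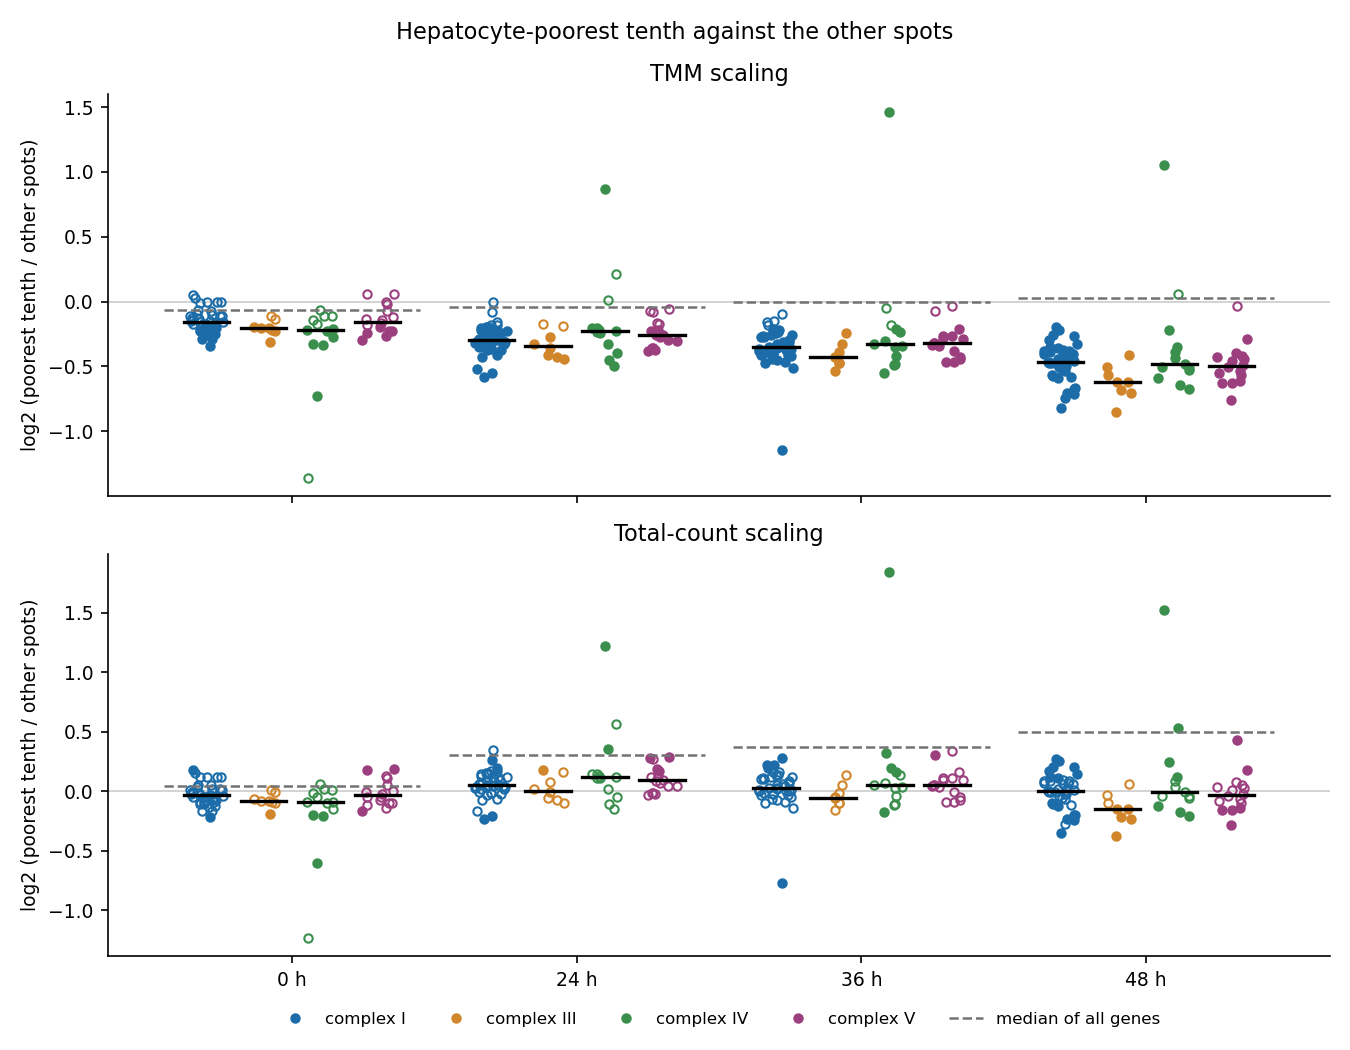
Log2 difference between the 10% of spots with the lowest hepatocyte score and the other spots of the same section for every member, by complex and time, with TMM scaling above and total-count scaling below. Each point is a gene, filled where called, black bars are complex medians and dashed lines the median of all genes tested. With TMM at 48h 72 members are called lower, and Cox6a2 is the 1 member called higher at each time after injury.

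Uqcrfs1 in the poor and other spots was at 163 and 235, and 173 and 216 CPM at 24h, and at 204 and 348, 166 and 305, 151 and 277, and 159 and 290 CPM at 48h. Each poor sum lay below its partner. Its 48h difference of −0.85 was the lowest of the members called. Ndufa4l2, which had a difference of −1.15 at 36h and −0.74 at 48h, was among the lowest too. Cox6a2 was higher in the poor spots at 24h (0.87), 36h (1.46) and 48h (1.05), a description and not a test as above. At 0h the poor spots of the 3 sections held 0, 1 and 0 of its UMIs, and at 36h sections A and B held 44 and 5.

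Marker genes of other cells rose in the same spots. Of 8 macrophage and monocyte genes 1, 7, 7 and 8 were called higher at the 4 times. Of 5 neutrophil genes it was 0, 4, 5 and 5, and of 8 myofibroblast and stellate genes 3, 3, 6 and 7. The shares of all genes called higher were 3.28, 11.2, 14.3 and 33.1%. The 7 mitochondrially encoded complex I genes were all called higher in the poor spots at 0h, with a median of 0.92, and had medians of −0.23, −0.52 and −0.95 after injury. With TMM, nuclear and mitochondrial subunits thus differed in direction in these spots at 0h, whereas at 48h 6 of the 7 mitochondrial genes and 72 of the 75 members were called lower. As a share of UMIs the members' log2 difference at 0h was only −0.03, −0.07 and −0.05 in the 3 sections. The part of these markers and of mitochondrial RNA in the differences was not tested.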

How the data were processed

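Visium libraries of 11 liver sections were used, grouped by the time point in the labels. The deposited files hold counts, whole UMIs per gene and spot, which the authors made with Space Ranger 1.0.0 against mm10, with later steps in Seurat 4.1.1 per the study's methods and processing notes. Those counts are not normalised. Here spots under tissue were used after dropping those with under 800 genes or with over 20% mitochondrial UMIs, as the methods state, and isolated spots were not removed by hand. UMIs were summed per section, or per section and spot class, because spots are not replicates. Depth limits the precision, and intervals cover the spread between sections only.

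All genes passing filterByExpr were fitted in edgeR 4.0.16 (R 4.3.3, limma 3.58.1) with TMM scaling and a robust quasi-likelihood test, and p-values were adjusted by Benjamini-Hochberg over all genes tested. Every count of time points came from 1 fit of 11 sections with no block. The zone and hepatocyte-poor fits had the section as a block. Log2 fold changes are edgeR's, and levels are CPM on TMM library sizes. Alternatives were DESeq2 1.42.0, scaling to total UMIs, no filter, other cut-offs and gene lists for the spot classes, no block, only the groups compared, and leaving out each section. The tests were run on simulated counts with known changes, in genes drawn from all those tested whatever their level, with no effect of section simulated. The recovery rates are thus not those of the members. At a log2 change of 0.5, 2 of 100 changed genes were recovered for 24h against 0h and 9 of 100 for 48h against 0h. At a log2 change of 1, 36 and 52 of 100 were recovered. For the sides at 0h 57 and 84 of 100 were recovered at these 2 changes. False calls were 4 of 42, 6 of 67 and 11 of 152 in the 3 comparisons. Promoter letters came from RefSeq windows and were searched in Python 3.11.15. Gene positions are from the GRCm38 annotation, in which 25 of the 75 members overlap another protein-coding gene, 6 of them on the same strand.

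The members and lists were chosen with earlier results of these data known. Genes were named by rule: in each comparison of times, the 2 called members per complex with the largest change at a mean of at least 10 CPM; in each zone comparison, 1 per complex; called members against the direction of their complex; and a list of anchor and isoform genes. Other named genes, such as Ndufa2 and Atp5s, were chosen after their values were seen. An aligner and the strand setting beyond these are not given in the sources used here.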

Additional observations from a re-analysis of the deposited data

Results flagged for a closer look

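Of the values tested for a section far from the rest of its group, 5 of 48 were singled out, and each was section A at 48h. The rule singles out about 1 in 20 independent values. These values are not independent, since the genes are parts of the sums, so the count cannot be set against that rate. They were Atp5b at 1036 CPM, Atp5f1 at 465 CPM, Atp5g3 at 379 CPM, the share of all members at 3.55% of UMIs, and the share of complex V at 0.940% of UMIs. Groups of 4 sections exist only at 48h, so the other times were not tested in this way. All members together were at 3.22 to 3.24% in the other 48h sections.

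With TMM the zone difference itself changed from 0h for 12 members at 24h, 8 at 36h and 66 at 48h. Of all genes 12.8, 15.2 and 33.8% passed, so the members' shares for 24h and 36h lie near or under these. With total-count scaling most calls for 24h and 36h pointed the other way. On that scale the share of the members for 48h was below that of all genes. Among the named ones, Ndufb11 changed by −0.38 at 24h and Uqcrc2 by −0.28 at 36h. At 48h Ndufb11 changed by −0.38, Uqcrfs1 by −0.37, Atp5a1 by −0.27, Atp5g3 by −0.25, Cox7b by −0.25 and Atp5g1 by −0.15. The isoforms changed in the other direction, Cox7a1 by 1.06, 0.86 and 1.04 and Cox6a2 by 3.61, 3.65 and 3.52 at the 3 times. The values of Cox6a2 rest on 0h sides with 0 to 2 of its UMIs centrally and 4 to 6 portally, too few for a fold.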

How the results depend on the processing

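With total-count scaling the members called against 0h were 35, 16 and 6 at 24h, 36h and 48h, and 4 at 36h against 24h. Between the central and portal side 34 were called at 24h (32 higher centrally) and 11 at 36h (all higher), both reversed, and 33 at 48h, and the changes from 0h were 23 and 8, both reversed, and 10. In the hepatocyte-poor spots the counts were 9 at 0h, 11 at 24h and 11 at 36h, both reversed, and 33 at 48h. Named genes that changed sign with it were Atp5b (0.0189), Atp5g2 (0.0145), Ndufs1 (0.00411) and Ndufv1 (0.0332) at 36h, Atp5g2 (0.15) and Cox7a2l (0.12) at 48h, Atp5g3 (0.0252) and Cox7a2l (0.16) between sides at 48h, and Atp5g1 (0.0808) in the change of zone at 48h. The all-gene median moves with this scaling.

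The small counts between injured times moved too. For 36h against 24h they were 5 with DESeq2, 0 with only the 2 groups fitted and 1 with the injured sections alone, and for 48h against 36h 2, 0 and 0. The fit on injured sections alone was added after seeing the data. With a replicate block on the section letter they were 1 and 0. Correlations of same-lettered deviations were 0.287 between 24h and 36h, and −0.124, −0.122, 0.0736 and −0.241 with 48h. With 2 sections in a group the deviations mirror each other, so letters A and B share 1 value there. Whether the letters pair the sections cannot be told from these values. The cause of the smaller counts was not tested.

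With no replicate block, that is without the section term, the sides gave 1, 0, 0 and 57 calls, the changes of zone 0, 0 and 1, and the poor spots 0, 3, 13 and 70. That fit leaves the spread between sections in the error, and 37 of 46 named values lost the call in it. With no filter on low counts the sides gave 15 and 23 at 24h and 36h and the changes of zone 7 at 24h and, reversed, 3 at 36h. With the study's zone lists the 36h change gave 14, and with a wider cut on the hepatocyte score the poor spots at 0h gave 20. The cause was not tested.

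Leaving out 1 section gave 55 to 70, 51 to 64 and 68 to 73 calls against 0h at 24h, 36h and 48h, 1 to 3 at 36h against 24h and 0 to 4 at 48h against 36h. Without section B at 36h the last was 4. Sides gave 6 to 14, 6 to 25, 8 to 39 and 71 to 72, the changes of zone 3 to 12, 3 to 13 and 60 to 69, with 3 (2 higher) in a reversed count at 24h without section B, and the poor spots 8 to 41, 16 to 66, 43 to 68 and 73 each time. Of the values of named genes, 1220 kept direction and call and 67 lost the call when a section was left out. With DESeq2 110 did and 6 lost it. Dropping mitochondrial genes or using all masked spots changed the call of none of 71 named values.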
